A study of Mus musculus with 2 samples.

Results

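The killer cell lectin-like receptors described here are the 8 genes Klrc1, Klrc2, Klrd1, Klrk1, Klre1, Klrb1b, Klrb1c and Klrg1, chosen by name from the 33696 genes of 2 single-cell RNA libraries of mouse lung. One library came from mouse lung labelled GFI1 KO, a germline deletion of the transcriptional repressor GFI1, and the other from lung labelled GFI1 WT. The mice were on the C57BL6/J background and 5 to 8 weeks old, and all live lung cells were sorted and loaded without selection of a cell type. The methods state 2 samples per genotype, of which 1 of each was analysed here, and the number of mice behind each library is not given in the sources used here. With 1 library per label there was no replicate, so genotype, mouse and library cannot be told apart, and no test was possible. Each value is a count of unique molecular identifiers (UMIs, one per captured RNA molecule) with an exact 95% interval that covers counting error only. Levels are in CPM, the gene's UMIs per 1000000 UMIs of the same cells, leaving out ribosomal, mitochondrial and predicted Gm genes.

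Killer lectin receptors are cell surface proteins by which lymphocytes read other cells. NKG2A, the product of Klrc1, carries inhibitory motifs and pairs with CD94, the product of Klrd1, and the pair binds the MHC molecule Qa-1. NKG2C, the product of Klrc2, shares the CD94 partner and ligand but signals through an activating adaptor. NKG2D, the product of Klrk1, binds stress-induced ligands of the RAE-1, H60 and MULT1 families and signals through DAP10, encoded by Hcst. Some of the NKR-P1 receptors of the Klrb1 family bind C-type lectins of the Clec2 family. Klrb1c encodes NK1.1, the antigen by which NK cells of this mouse strain are recognised, and Klrb1b encodes an inhibitory NKR-P1 receptor. Klre1 encodes a receptor that pairs with other lectins of the family, and KLRG1 is an inhibitory receptor for cadherins on differentiated T, NK and innate lymphoid cells.

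The genes lie on chromosome 6, and in the RefSeq gene order Klre1, Klrd1, Klrk1, Klrc3, Klrc2 and Klrc1 follow one another, Klrb1c and Klrb1b are neighbours, and Klrg1 stands apart. Some of the family are near-identical in sequence. In the last 500 bases of GENCODE transcripts (GRCm38), 32% of 91-base windows, the read length of the study, of the longest coding Klrc1 transcript were also found in Klrc2. For the other coding transcripts of the family the highest shared share was 18.0% for Klrc2 (with Klrc1 and Klrc3). It was 65.8% for Klrb1b (with Gm44511), 41.0% for Klrb1c (with Gm44511 and Klrb1a) and 0% for Klrd1, Klrk1, Klre1 and Klrg1. The longest coding transcripts of Klrc2, Klrb1b and Klrb1c shared 0%, and Klrb1b and Klrb1c shared no window with each other. The split of counts between Klrc1 and Klrc2, and between Klrb1b or Klrb1c and their partners, is therefore less certain than the other values.

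After a filter on low-quality cells the library labelled KO held 10495 cells and the library labelled WT 19342. The 2 libraries shared 74 cell barcodes, 0.692% and 0.379% of their called cells. RNA of Gfi1, the deleted gene, was counted in both: 39.8 CPM (28.4 to 54.2) in NK-like cells labelled KO against 24.7 (21.4 to 28.5) labelled WT, and 17.2 (11.6 to 24.5) against 11.2 (8.53 to 14.5) in CD8 T cells. In ILC-like cells Gfi1 was at 362 CPM (187 to 632) in the 8 cells labelled KO against 21.9 (12.5 to 35.5), in CD4 T cells at 27.6 (13.8 to 49.4) against 4.10 (1.88 to 7.79), and in Trdc-positive T cells at 14.3 (5.24 to 31.1) against 23.2 (11.1 to 42.7). Gfi1 RNA was thus higher under the KO label in 4 of the 5 classes, with intervals that did not overlap in ILC-like and CD4 T cells. Where these 3' counts lie relative to the deletion is not given, so groups are named below only by their labels. NK-like cells and innate lymphoid cell (ILC)-like cells were taken from clusters with their markers and no Cd3e UMI. T cells came from the remaining clusters of the lymphoid compartment and were split by UMIs of Trdc, Cd4, Cd8a and Cd8b1, with no Klr gene used to cluster, name or split the cells.

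NK-like cells numbered 218 (2.08% of the library) under the KO label and 2027 (10.5%) under the WT label. The other classes had 8 and 142 ILC-like cells, 81 and 90 Trdc-positive T cells, 98 and 517 CD4 T cells, and 366 and 1160 CD8 T cells. Their median depth lay between 3575 and 4583.5 UMIs per cell. The tags of antibodies to CD4 and CD8a, which took no part in the split, reached at least 30 UMIs on 99.0% and 99.4% of CD4 T cells and on 97.8% and 98.9% of CD8 T cells, KO label first. In the 142 ILC-like cells labelled WT, RNA of 4 myeloid genes summed to 2850 CPM, and in the 8 labelled KO to 3197, all of it Lyz2, while in the other classes the same sum lay between 117 and 296. Scrublet, a doublet caller, marked 1 of the 8 and 15 of the 142 ILC-like cells.

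NK-like cells had the highest level of each of the 8 receptors under both labels. The order of the other classes below them differed from gene to gene, and for some genes between the labels.

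**Figure D1:**
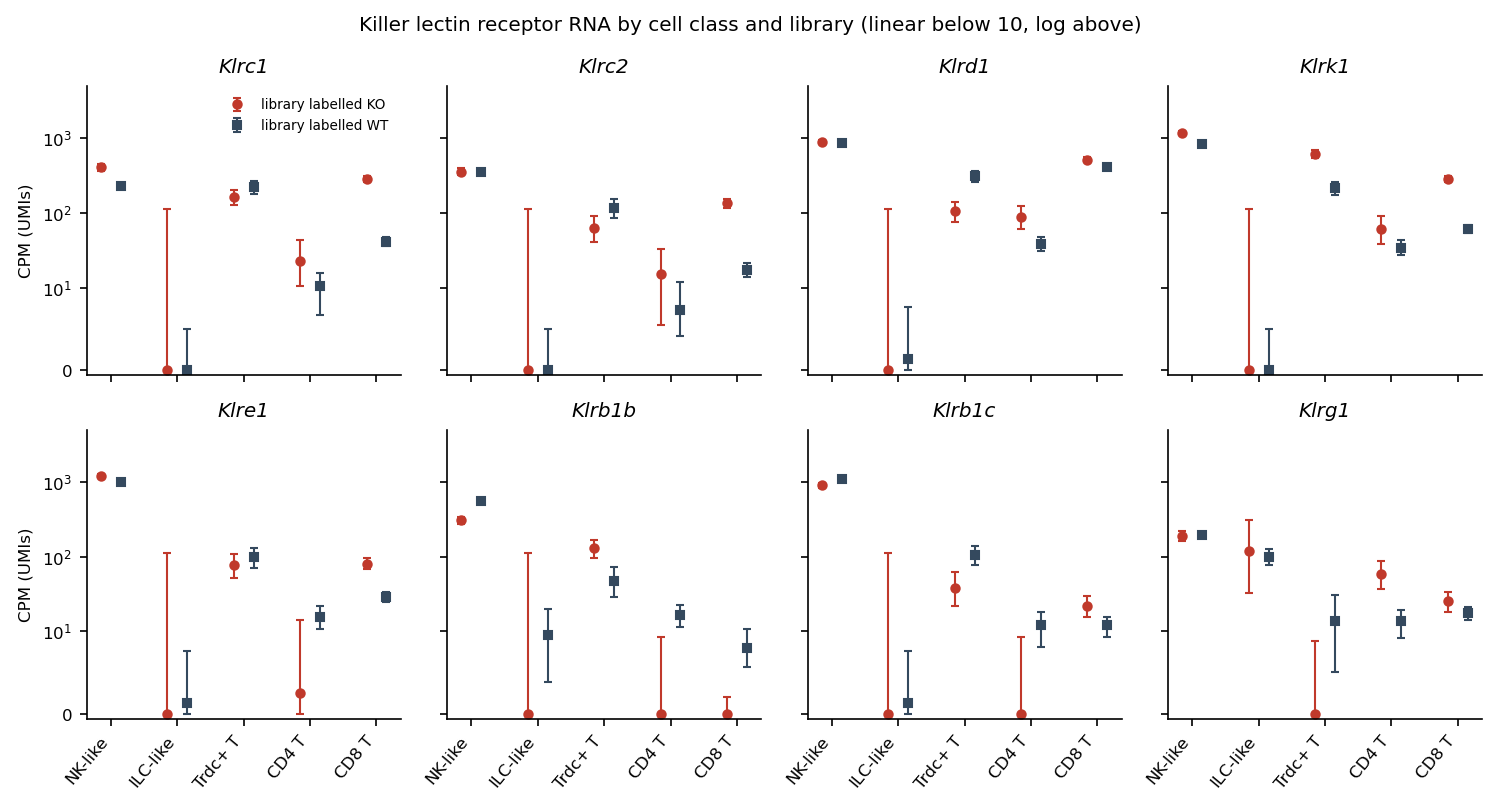
Level of each receptor gene (CPM) in 5 cell classes, on an axis that is linear below 10 and logarithmic above, with the library labelled KO as circles and WT as squares and exact 95% counting intervals as bars. In NK-like cells the 2 symbols lie close together for most genes, and in CD8 T cells the symbols for Klrc1, Klrc2 and Klrk1 are far apart (284 against 41.2 for Klrc1).

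The inhibitory Klrc1 was at 405 CPM (367 to 447) in NK-like cells labelled KO, followed by CD8 T cells at 284 (259 to 310), Trdc-positive T cells at 162 (126 to 205) and CD4 T cells at 22.6 (10.3 to 42.9). Under the WT label NK-like cells at 232 (222 to 243) and Trdc-positive T cells at 221 (179 to 270) had overlapping intervals, and CD8 T cells at 41.2 (35.9 to 47.1) and CD4 T cells at 10.5 (6.65 to 15.7) were lower. CD8 T cells thus stood second under the KO label, and behind Trdc-positive T cells under the WT label. No Klrc1 or Klrc2 UMI was seen in ILC-like cells. The exact intervals reached up to 111 CPM for the 8 cells labelled KO and 5.04 CPM for the 142 labelled WT.

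Klrk1, the NKG2D gene, had the same first place. Under the KO label it was at 1173 CPM (1107 to 1242) in NK-like cells, 622 (549 to 702) in Trdc-positive T cells, 286 (261 to 312) in CD8 T cells and 60.3 (38.6 to 89.7) in CD4 T cells. Under the WT label these levels were 839, 214, 61.0 and 34.2, in the same order and with no overlap between neighbours. Klrd1, the CD94 gene, was second in CD8 T cells under both labels, at 517 (484 to 552) and 413 (395 to 430), against 896 and 864 in NK-like cells. Unlike its NKG2 partners, Klrd1 was therefore found at a high level in CD8 T cells of both libraries.

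Klrb1c was found mainly in NK-like cells, at 900 CPM (842 to 961) labelled KO and 1086 (1063 to 1109) labelled WT. The next class, Trdc-positive T cells, was at 38.1 (21.8 to 61.9) and 105 (76.3 to 140). Klrg1 had its second highest level in ILC-like cells, at 121 (32.9 to 309) for 4 UMIs in 2 of 8 cells labelled KO and 99.7 (78.2 to 125) for 73 UMIs in 41 of 142 cells labelled WT. Under the KO label the interval for ILC-like cells overlapped those of NK-like cells at 188 (162 to 217) and of CD4 T cells at 57.8 (36.6 to 86.7). It was the only receptor of the 8 with more than 7 UMIs in ILC-like cells of either library.

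Cells of other lineages were looked at for a background. Among B-like cells, with median depths of 2911 and 3111.5 UMIs, at most 0.557% labelled KO and 0.806% labelled WT had a UMI of any 1 of the receptors, the highest being Klrd1. In alveolar macrophage-like cells, which were far deeper (medians of 11376.5 and 11964 UMIs), Klrb1b was seen in 6.67% and 4.93% of cells and in 0.919% and 0.588% after thinning each cell to 1500 UMIs. The next highest receptor in these cells, unthinned, was Klrk1 at 0.686% under the KO label and Klrd1 at 2.24% under the WT label. Klrb1b thus stood apart there, and whether the macrophages make this RNA was not tested. Shares of cells in the T cell classes are therefore read against the values of B-like cells.

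In NK-like cells Klrc1 was higher and Klrb1b lower under the KO label, and the other receptors were closer together. None of the 8, all with at least 30 UMIs, was 2-fold higher or 2-fold lower, where 3.62% and 7.6% of the 9784 genes with that many UMIs were. Klrc1 was at 405 against 232 CPM (ratio 1.74, 1.56 to 1.94), and was found in 64.7% (57.9 to 71.0) of cells against 36.3% (34.2 to 38.4). After thinning to 1500 UMIs these shares were 39.5% and 24.3%. Its activating relative Klrc2 was at 356 and 358 (ratio 0.996, 0.890 to 1.11).

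Klrb1b differed in the other direction, with 308 CPM (274 to 344) labelled KO against 564 (547 to 581) labelled WT (ratio 0.546, 0.485 to 0.613). Klrb1b was past 2-fold lower with UMI gates in place of clusters (0.453) and with each library clustered on its own (log2 ratio -1.08). Klrk1 was at 1173 against 839 (ratio 1.40, 1.31 to 1.49) and Klre1 at 1210 against 1011 (1.2, 1.13 to 1.27). The NK1.1 gene Klrb1c was slightly lower, 900 against 1086 (0.829, 0.773 to 0.888). Klrd1 (896 and 864) and Klrg1 (188 and 194) had ratios whose intervals held 1.

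The NK-like cells of the 2 libraries did not fall into the same clusters. Of the cells labelled KO, 164 lay in cluster 11, with Ptpn5, Dsp and Gzmk among its leading genes, which held 3 cells labelled WT. Of the cells labelled WT, 1570 lay in cluster 0 and 301 in cluster 5, with 32 and 4 cells labelled KO. All 8 NK markers were raised in cluster 11, but Gzmk among its top genes left it without a name in the second round. In cluster 0, the only one with over 10 NK-like cells of each label, Klrc1 was at 354 against 212 CPM (ratio 1.67, 1.11 to 2.41). There the Klrb1b values were 452 and 588 (0.769, 0.540 to 1.06), an interval that held 1, and in cluster 11 Klrb1b was at 279 in the cells labelled KO. Klrk1 gave 1112 against 861 in cluster 0 (1.29, 1.04 to 1.59).

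Antibody tags gave 2 of the receptors a protein count. The NK1.1 tag had a median of 73 UMIs per NK-like cell labelled KO (quartiles 53.25 and 100) and 28 labelled WT (18 and 41), opposite in direction to the Klrb1c RNA. The KLRG1 tag had medians of 41.5 (12 and 87.75) and 19 (5 and 41), where Klrg1 RNA was at 188 and 194. Within cluster 0 the NK1.1 medians were 65.5 and 27 and the KLRG1 medians 42.5 and 21. Of the other tags in the same cells, CD45 had medians of 942 and 600 and CD335 (the NK receptor NKp46) 14 and 12. The CD335 tag was not specific to NK-like cells here, with medians of 61 and 39 in endothelial-like cells. In B-like cells the NK1.1 medians were 1 and 2 and the KLRG1 medians 0 and 1. The part of the overall tag yield, as in CD45, in these differences was not tested.

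**Figure D2:**
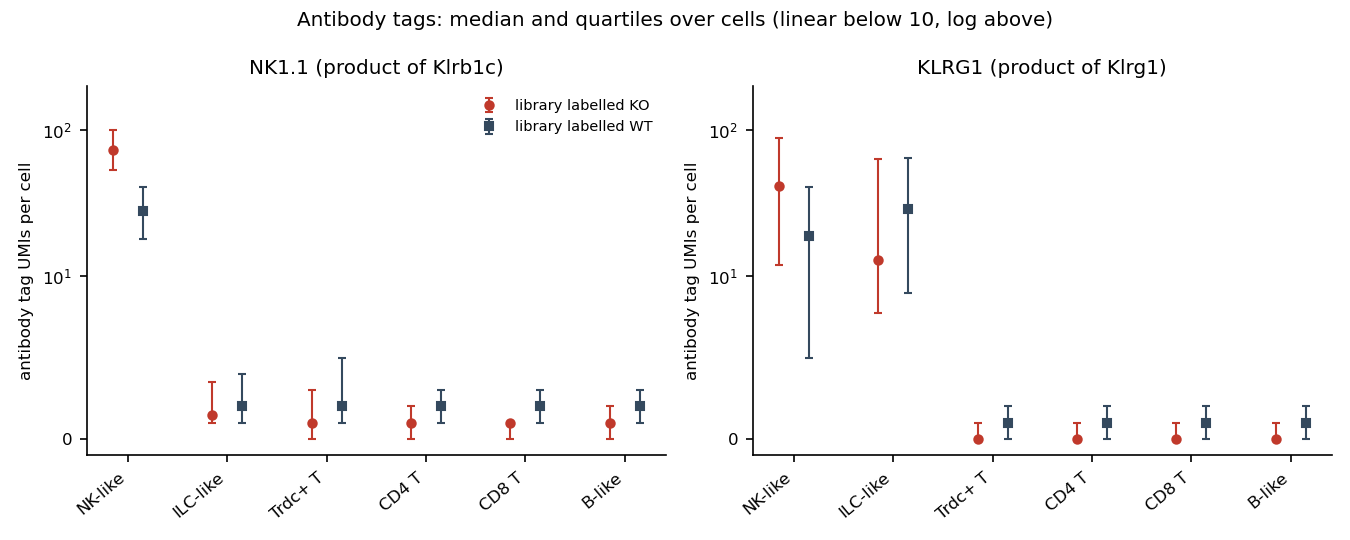
Antibody tag UMIs per cell for NK1.1 and KLRG1, as the median with quartiles over the cells of each class, with the library labelled KO as circles and WT as squares. NK-like cells stand far above the other classes for NK1.1 (73 and 28), and ILC-like cells join them for KLRG1 (13 and 29).

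Klrg1 RNA and its protein tag went together cell by cell. NK-like cells with a Klrg1 UMI had a median of 69 KLRG1 tag UMIs labelled KO and 36.5 labelled WT, against 18 and 9 in cells without one. In CD8 T cells these medians were 71 and 53 with a UMI and 0 and 1 without. Among ILC-like cells labelled WT they were 57 and 20, and at least 30 tag UMIs were found on 48.6% (40.1 to 57.1) of the 142 cells and on 3 of the 8 labelled KO. Klrb1c RNA was a poorer guide in CD8 T cells, though linked to the tag under the WT label. Of the 22 CD8 T cells labelled KO with a Klrb1c UMI, 0 had 30 NK1.1 tag UMIs (interval up to 15.4%), against 0.291% of those without. Of the 28 such cells labelled WT, 21.4% (8.30 to 41.0) had them, against 0.177% of those without. In Trdc-positive T cells labelled WT the shares were 40% (16.3 to 67.7) of 15 with a UMI and 0% of 75 without. Under the KO label 0 of the 9 with a UMI had 30 tag UMIs.

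CD8 T cells held the largest differences. Of the 8 receptors, all with at least 30 UMIs, 4 were at least 2-fold higher under the KO label, against 3.01% of 9464 genes, and 1 was at least 2-fold lower, against 3.39%. The median of the 8 log2 ratios (0.5 UMIs added) was 1.16, and over all 9464 genes it was -0.03. Klrc1 was at 284 CPM labelled KO and 41.2 labelled WT (ratio 6.88, 5.85 to 8.11). Klrc2 followed with 134 (117 to 152) and 17.1 (13.8 to 21.0), a ratio of 7.81 (6.10 to 10.1). The NKG2D gene Klrk1 gave 286 and 61.0 (4.69, 4.07 to 5.41), and Klre1 gave 80.2 (67.5 to 94.7) and 28.9 (24.5 to 33.9), a ratio of 2.78 (2.19 to 3.52). These 4 genes belong to 1 stretch of chromosome 6.

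The CD94 gene Klrd1, which lies between Klre1 and Klrk1, did not share the size of this difference, with 517 against 413 CPM (1.25, 1.16 to 1.36). Klrb1c was at 21.8 and 12.2 (1.79, 1.17 to 2.72), a log2 ratio of 0.84. That log2 ratio was 1.86 without the cells marked by Scrublet and 2.27 without T cells with an Ncr1 UMI or 30 NK1.1 tag UMIs. Klrb1c was thus past 2-fold higher under both alternatives. Klrg1 was at 25.2 and 17.5 (1.44, 0.983 to 2.09). Klrb1b had no UMI in 366 cells labelled KO and 42 UMIs in 13 of the 1160 cells labelled WT. The interval of that ratio of Klrb1b reached up to 0.277. The call rested on few cells: 10 of the 13 also had a Klrb1c UMI, and without the cells marked by Scrublet fewer than 30 Klrb1b UMIs were left.

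**Figure D3:**
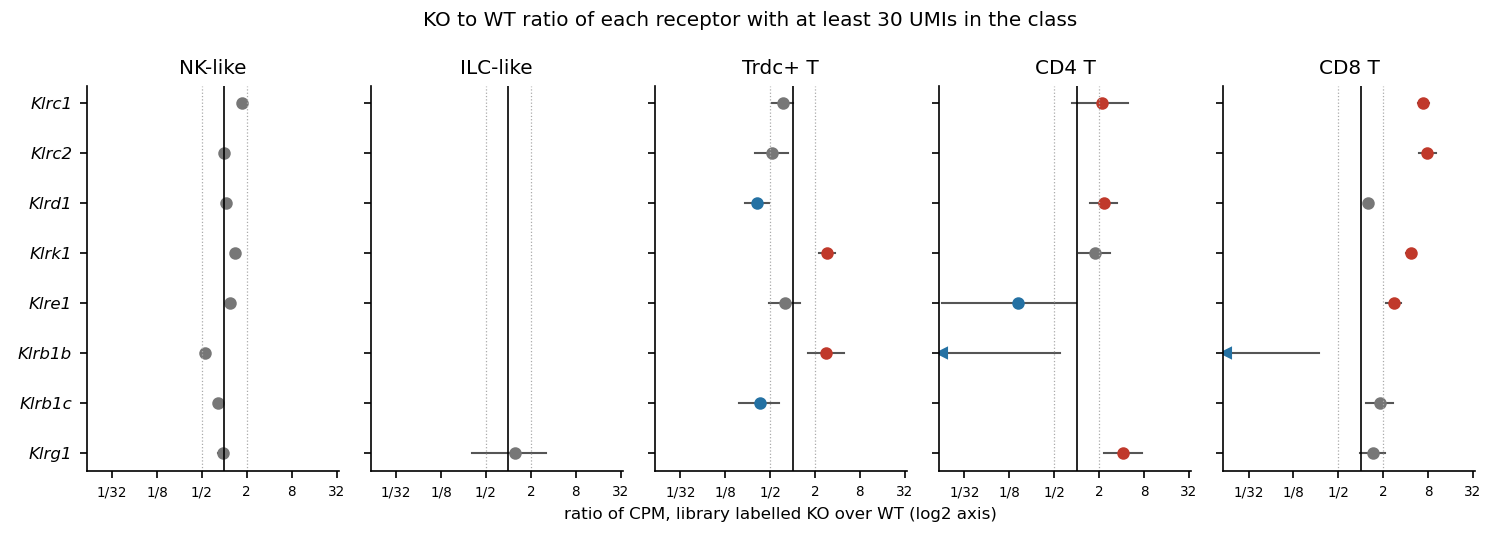
Ratio of CPM between the libraries labelled KO and WT for each receptor with at least 30 UMIs in the class, on a log2 axis, with exact 95% counting intervals as lines, ratios of at least 2 in red, of at most 1/2 in blue and an arrowhead for a ratio of 0. The CD8 panel shows Klrc1, Klrc2, Klrk1 and Klre1 to the right of 2 and Klrd1 near 1.25, and the NK-like panel shows every gene between the dotted lines.

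The sequences before the transcription starts of the 4 genes at least 2-fold higher over all CD8 T cells under the KO label are shown. They cover the 250 bases upstream of the start farthest upstream in RefSeq (GRCm38.p6, another build than the GRCm39 of the counts), on the gene's strand, with the letters AATC, the core of the GFI1 binding motif, or its reverse complement GATT in capitals.
Klrc1 (chr6:129678974-129679223, minus strand): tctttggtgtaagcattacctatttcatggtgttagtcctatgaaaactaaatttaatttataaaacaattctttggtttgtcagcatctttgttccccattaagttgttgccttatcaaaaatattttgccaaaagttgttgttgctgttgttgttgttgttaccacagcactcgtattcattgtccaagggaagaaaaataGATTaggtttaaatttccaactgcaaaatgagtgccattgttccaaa
Klrc2 (chr6:129660597-129660846, minus strand): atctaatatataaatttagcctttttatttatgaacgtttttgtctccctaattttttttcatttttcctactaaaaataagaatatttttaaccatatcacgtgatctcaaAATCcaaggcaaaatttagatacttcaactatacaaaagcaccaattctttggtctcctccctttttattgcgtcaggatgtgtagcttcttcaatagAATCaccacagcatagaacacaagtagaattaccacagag
Klrk1 (chr6:129623865-129624114, minus strand): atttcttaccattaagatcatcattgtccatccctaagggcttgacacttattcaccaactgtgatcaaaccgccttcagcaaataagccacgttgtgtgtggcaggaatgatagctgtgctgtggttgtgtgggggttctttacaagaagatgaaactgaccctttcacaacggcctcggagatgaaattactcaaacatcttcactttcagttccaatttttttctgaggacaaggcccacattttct
Klre1 (chr6:129577963-129578212, plus strand): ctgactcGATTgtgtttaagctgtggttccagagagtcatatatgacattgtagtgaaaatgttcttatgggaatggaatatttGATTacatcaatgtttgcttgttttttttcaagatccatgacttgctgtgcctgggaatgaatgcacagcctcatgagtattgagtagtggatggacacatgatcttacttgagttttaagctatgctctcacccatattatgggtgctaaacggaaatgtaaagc
The core was found 1 time before Klrc1, 2 times before Klrc2, 2 times before Klre1 and not before Klrk1. Outside these 4 genes, the core was found 1 time before Klrb1c and not before Klrb1b. Of 32841 promoter windows of the same length in the table, 69.0% held it, with a median of 1 match. The longer form AAATCA (reverse complement TGATTT, which overlaps the core) was in none of the 4 and in 12.4% of all windows. A match is a run of letters and not a measured binding site, and its relation to the RNA levels was not tested.

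The CD8 T cells of the 2 libraries also differed in kind. Cluster 1, in which 7 of 8 markers of naive-type T cells were raised and Ccr9, Dapl1 and Cd8a led, held 34.4% of CD8 T cells labelled KO (126) and 78.3% labelled WT (908). Cluster 3, led by Ifngas1, Hdac9, Trgv2, Gzmm and Trgc2, held 43.7% (160) and 9.22% (107). It had 5 of 8 γδ and 3 of 8 CD8 markers raised, and γδ genes lead it, so its cells are CD8 T cells only by their Cd8a or Cd8b1 UMI. The CD8a antibody tag reached 30 UMIs on 100% and 98.1% of them. Cluster 8, led by Gzmk, H2-Q10, Cd8a and Cx3cr1 with 5 of 8 effector markers raised, held 17.8% (65) and 8.71% (101).

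Cluster 1 had almost no NKG2 RNA under either label. Klrc1 was at 5.36 and 0.757 CPM there, from 3 UMIs each, and Klrk1 at 8.94 and 9.85. Klrd1 was present all the same, at 572 against 391 (ratio 1.46, 1.29 to 1.65) and in 79.4% and 71.5% of cells. Naive-type CD8 T cells thus carried RNA of the CD94 chain without that of its NKG2A or NKG2C partners.

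In cluster 3 Klrc1 was at 359 CPM labelled KO against 150 labelled WT (2.40, 1.90 to 3.05), in 55.0% and 29.0% of cells. Klrc2 there gave 185 against 53.0 (3.49, 2.40 to 5.22), Klrk1 259 against 146 (1.77, 1.39 to 2.28) and Klre1 121 against 63.9 (1.90, 1.31 to 2.79). In cluster 8 Klrc1 was at 667 against 259 (2.57, 2.0 to 3.32), in 92.3% and 41.6% of cells. The same cluster had Klrk1 at 944 against 336 (2.81, 2.26 to 3.50), Klrc2 at 246 against 94.7 (2.60, 1.71 to 4.0) and Klrb1c at 79.4 against 19.9 (3.98, 1.68 to 10.5). Klre1 (127 and 142) and Klrg1 (171 and 197) had intervals of the ratio that held 1 in cluster 8.

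Within clusters 3 and 8 Klrc1, Klrc2 and Klrk1 were therefore higher under the KO label too, but by less than over all CD8 T cells. With the levels of the 3 clusters weighted by their UMIs in the library labelled WT, so that the mix of clusters was equal, the ratio was 2.56 for Klrc1 in place of 6.88, 3.09 for Klrc2, 2.17 for Klrk1 and 1.40 for Klre1. For Klrd1 it was 1.35 and for Klrb1c 1.73. These 3 clusters held 351 of the 366 and 1116 of the 1160 CD8 T cells. The clusters were made without Klr genes but with genes that vary with them, and a finer mix within a cluster was not tested. Cells labelled KO had 1902 CPM of 8 NK marker genes and those labelled WT 1419. One of these genes, Ncr1, was at 0 under the KO label and was seen under the WT label.

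**Figure D4:**
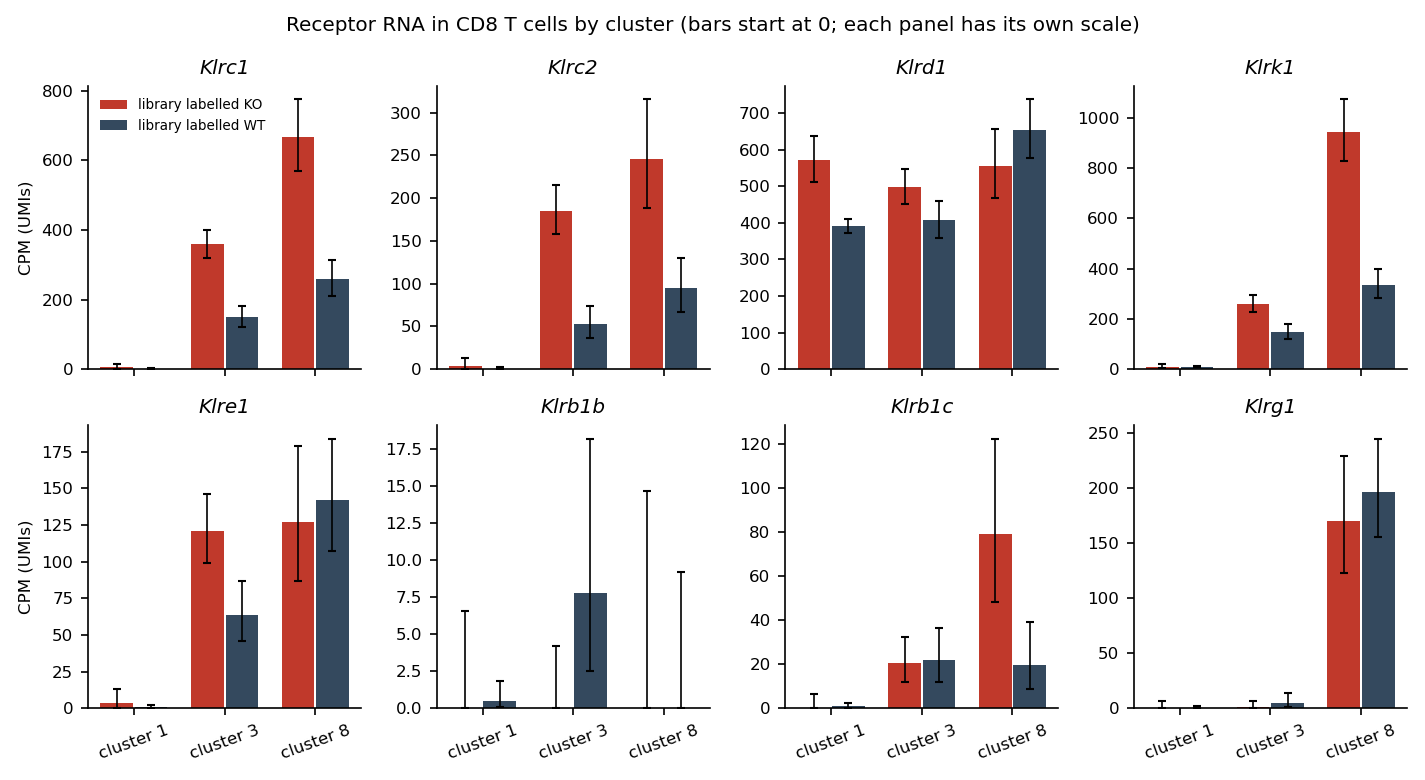
Level of each receptor (CPM) in CD8 T cells by cluster, with bars for the library labelled KO in red and WT in dark blue and exact 95% counting intervals. Klrc1, Klrc2 and Klrk1 are near 0 in cluster 1 and higher in clusters 3 and 8, where the red bars are higher (359 and 667 against 150 and 259 for Klrc1), while Klrd1 is present in all 3 clusters and Klrg1 mainly in cluster 8.

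Over all CD8 T cells, pooled over clusters, the receptors were often found in the same cells. Of the 158 cells labelled KO with a Klrc1 UMI, 60.1% (52.0 to 67.8) had a Klrc2 UMI, against 6.25% (3.37 to 10.5) of those without, and 62.0% had a Klrk1 UMI against 13.9%. Under the WT label the share with Klrc2 was 47.6% (36.4 to 58.9) of 82 cells against 1.48% (0.851 to 2.40). Klrc1 and Klrc2 share part of their 3' sequence, and its part in this overlap was not tested. Cluster 1, with 126 and 908 of the CD8 T cells, had almost no Klrc1, Klrc2 or Klrk1 RNA. Shares within clusters were not taken, so the part of the mix of clusters in these contrasts was not tested either. RNA of Hcst, which encodes DAP10, an adaptor of NKG2D, was found in all 127 CD8 T cells labelled KO with a Klrk1 UMI. Under the WT label it was found in 93.6% of 109 such cells. Of the cells without a Klrk1 UMI, 90.8% labelled KO and 82.2% labelled WT also had it.

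At least 3 of the 8 receptors were seen in 36.3% (31.4 to 41.5) of CD8 T cells labelled KO and 7.76% (6.28 to 9.45) labelled WT. After thinning these shares were 16.2% and 2.94%. Cluster 1, with almost no Klrc1, Klrc2 or Klrk1 RNA, held 34.4% and 78.3% of the CD8 T cells. The part of this mix in the shares was not tested. NK-like cells of both libraries had a median of 6 receptors, and 99.1% and 98.7% of them had at least 3. In NK-like cells labelled KO, 70.2% of those with a Klrc1 UMI and 71.4% of the others had a Klrc2 UMI. Under the WT label Klrc2 was less frequent with Klrc1 (60.1%, 56.5 to 63.7) than without (68.3%, 65.7 to 70.8), and after thinning the shares were 38.1% (33.8 to 42.6) and 40.7% (38.2 to 43.2). Klrd1 was found in 95.7% and 91.3% of the NK-like cells with a Klrc1 UMI and in 90.9% and 90.7% of those without, and after thinning in 74.7% and 68.5% with against 69.3% and 72.7% without.

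**Figure D5:**
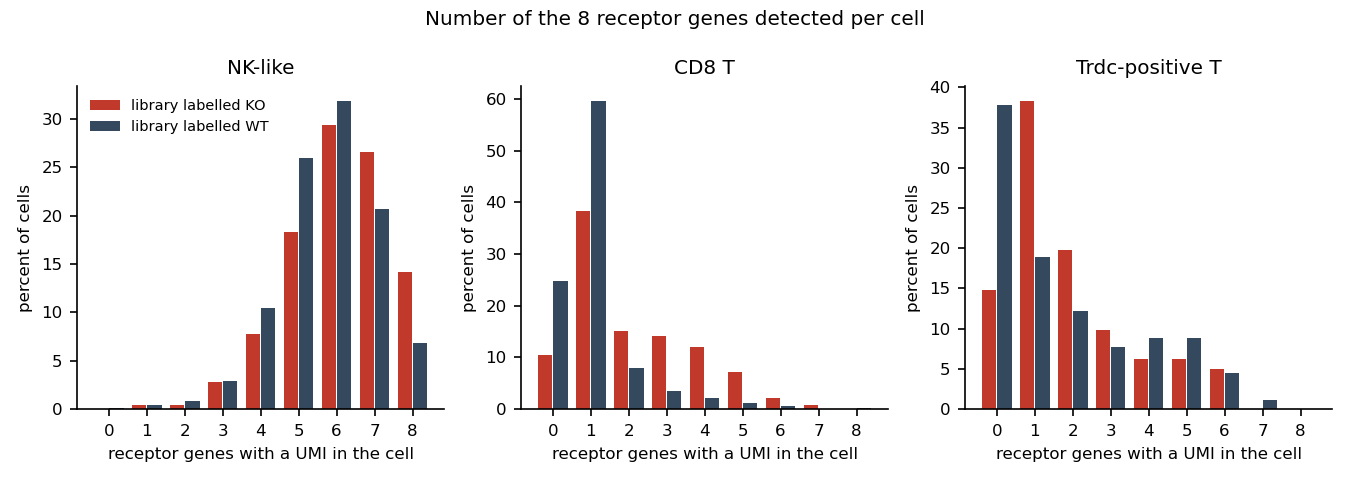
Percent of cells by the number of the 8 receptor genes with at least 1 UMI, for NK-like, CD8 T and Trdc-positive T cells, with bars for the library labelled KO in red and WT in dark blue. NK-like cells centre on 6 genes under both labels, and CD8 T cells labelled KO reach 3 or more genes in 36.3% of cells against 7.76%. The part of the mix of CD8 clusters in this contrast was not tested.

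Trdc-positive T cells, which carry the constant gene of the δ chain, showed differences in both directions. Of 7 receptors with at least 30 UMIs, 2 were at least 2-fold higher under the KO label and 2 at least 2-fold lower, against 10.8% and 12% of 5242 genes. Klrk1 was at 622 CPM (549 to 702) labelled KO and 214 (172 to 262) labelled WT (ratio 2.91, 2.28 to 3.73), in 76.5% and 35.6% of cells. Klrb1b gave 129 (96.6 to 168) and 46.5 (28.4 to 71.8), a ratio of 2.77 (1.63 to 4.88), but all 20 of its UMIs under the WT label came from 3 cells. Klrd1 was lower, at 105 against 311 (0.337, 0.234 to 0.476), as was Klrb1c at 38.1 against 105 (0.364, 0.192 to 0.657). Klrc2 was at 61.9 and 116 (0.533, 0.319 to 0.873), and the intervals of Klrc1 (162 and 221) and Klre1 (76.2 and 97.6) held 1. These calls depended on which cells were counted. The ratio of Klrb1c was 0.974 without T cells with an Ncr1 UMI or 30 NK1.1 tag UMIs. With clusters that held markers of other lineages kept, the ratios of Klrk1 (1.73) and Klrd1 (0.578) were within 2-fold, and the log2 ratio of Klrb1c was -0.67. Klrb1b was at 1.74 with UMI gates in place of clusters and 8.30 without the cells marked by Scrublet.

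These cells too fell into different clusters. Cluster 6, with all 8 γδ markers raised and Il23r, Il17a and Il1r1 among its leading genes, held 64 of the 81 cells labelled KO and 17 of the 90 labelled WT. Cluster 3 held 16 and 62. In cluster 6 Klrk1 was at 643.5 against 170 CPM (3.79, 2.13 to 7.45) and Klrb1b at 160 against 28.3 (5.66, 1.49 to 47.9). The Klrb1b level labelled WT rested on 2 UMIs in 5.88% of the 17 cells. The CD94 gene was nearly absent from that cluster, with 2 UMIs under each label, and Klre1 had none. Klrb1c had 2 and 5 UMIs (0.0838, 0.00798 to 0.512), the latter in 11.8% of the 17 cells labelled WT. Klrc1 had 26 UMIs in the 64 cells labelled KO and none in the 17 labelled WT, where the interval of the ratio began at 1.37. For Klrc2, with 13 UMIs labelled KO and none labelled WT, the interval began at 0.639.

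In cluster 3, Klrc1 and Klrk1 of the Trdc-positive T cells were higher under the KO label as in cluster 6, and Klrd1 was present. Klrd1 was at 516 CPM labelled KO and 401 labelled WT (1.29, 0.884 to 1.84), in 87.5% and 62.9% of cells. Klrc1 was at 516 against 293 (1.76, 1.19 to 2.56), Klrk1 at 540 against 229 (2.36, 1.58 to 3.48) and Klre1 at 393 against 118 (3.33, 2.01 to 5.50). The lower Klrd1 and Klrb1c over all Trdc-positive T cells were not seen within cluster 3, where Klrb1c was at 172 against 102 (1.69, 0.832 to 3.25). Under the WT label 6.67% of Trdc-positive T cells had at least 30 NK1.1 tag UMIs and 13.3% at least 30 CD4 tag UMIs, against 1.23% and 0% under the KO label. Of the 8 NK marker genes all were seen under the WT label (1631 CPM) and 7, without Ncr1, under the KO label (791).

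CD4 T cells carried the receptors in few cells. Of 6 receptors with at least 30 UMIs, 3 were at least 2-fold higher under the KO label and 2 at least 2-fold lower, against 5.31% and 6.95% of 7773 genes. Klrg1 was at 57.8 CPM (36.6 to 86.7) against 13.7 (9.23 to 19.5), a ratio of 4.22 (2.34 to 7.52). All 23 of its UMIs under the KO label came from 5 cells, each with an RNA of the regulatory T cell factor Foxp3, and 25 of the 30 labelled WT came from Foxp3-positive cells as well. Among cells with a Foxp3 UMI, 12 and 29, the ratio was 2.22 (1.2 to 4.08). At least 30 KLRG1 tag UMIs were found on 50% (21.1 to 78.9) and 24.1% (10.3 to 43.5) of them. These intervals overlapped, and the part of the overall tag yield in the shares was not tested. With CD4 T cells taken from antibody tags the ratio of Klrg1 was 1.78.

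Klrd1 in CD4 T cells was at 87.9 (61.2 to 122) against 38.3 CPM (30.6 to 47.4), a ratio of 2.30 (1.5 to 3.44), and 1.93 with UMI gates in place of clusters. Klrd1 was higher in the naive-type cluster 2, at 84.7 against 33.9 from 10 and 53 UMIs (2.50, 1.13 to 4.96). In the Foxp3- and Ctla4-led cluster 4 it was at 84.6 against 8.51, from 21 and 4 UMIs (9.95, 3.36 to 39.9). Of the 35 Klrd1 UMIs in CD4 T cells labelled KO, 17 came from 3 cells. Klrc1 gave 22.6 against 10.5 with an interval that held 1 (2.16, 0.878 to 4.84), and 22 of its 23 UMIs under the WT label came from 3 cells. Klre1 (1 and 34 UMIs) and Klrb1b (0 and 36) were lower, and 32 of the 36 Klrb1b UMIs came from 3 cells. Neither remained lower than 2-fold with at least 30 UMIs when T cells with an Ncr1 UMI or 30 NK1.1 tag UMIs, or those marked by Scrublet, were left out.

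The adaptors, signalling proteins, ligands and other lectin receptors of the pathway, 31 genes, gave a setting for these values. In CD8 T cells none of the 17 with at least 30 UMIs was 2-fold different, against 3.01% of all genes higher and 3.39% lower. Hcst was at 779 CPM labelled KO and 527 labelled WT (1.48, 1.39 to 1.58), and the activating adaptors Tyrobp (35.5 and 38.4) and Fcer1g (32.7 and 30.8), DAP12 and the Fc receptor γ chain, had ratios whose intervals held 1. In NK-like cells, of 23 genes 3 were at least 2-fold lower and none higher, against 7.6% and 3.62% of all genes: Klri1 (0.407, 0.207 to 0.725), the SAP-family adaptor gene Sh2d1b1 (0.478, 0.299 to 0.728) and Klrb1 (0.496, 0.195 to 1.06). Tyrobp was at 2990 and 2586 there, Fcer1g at 2263 and 2128 and Hcst at 602 and 518.

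Trdc-positive T cells had 2 of 14 pathway genes at least 2-fold higher and 7 lower, against 10.8% and 12% of all genes. The kinase gene Zap70 was at 272 against 79.0 CPM (3.44, 2.33 to 5.2) and the phosphatase gene Ptpn6 at 176 against 76.7 (2.30, 1.51 to 3.58). Fcer1g was at 28.6 against 221 (0.129, 0.0646 to 0.237) and Tyrobp at 40.5 against 123 (0.329, 0.178 to 0.577), with Lck, Vav1, Sh2d1a, Clec2d and Clec2i lower as well (ratios from 0.205 to 0.497). Hcst was at 529 and 479 (1.1, 0.910 to 1.34). In CD4 T cells 1 of 14, Clec2i, a ligand gene of some NKR-P1 receptors, was lower (0.380, 0.160 to 0.774), against 6.95% of all genes. In the 8 ILC-like cells labelled KO, Tyrobp (6.32, 4.51 to 8.74), Fcer1g (4.97, 3.14 to 7.59) and Ptpn6 (2.39, 0.618 to 6.64) were higher and Inpp5d lower (0.220, 0.0597 to 0.568) among 11 genes. In that class 9.06% and 29% of 4836 genes were as far apart, and neither direction is read further.

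Over the 10 points made of 5 classes in 2 libraries, each receptor was set beside 8394 genes with at least 200 UMIs by Pearson's r of log2(CPM + 1). Klrc1 was most like Cd160 (0.98), a receptor of NK and activated CD8 T cells, then Klrc2 (0.98) and Klrk1 (0.98). Klrd1 was most like Nkg7 (0.99), a gene of cytotoxic granules, and Klre1 most like the granzyme gene Gzma (0.98). Klrb1c lay closest to Klri2 (0.99), Klrc2 to Slamf7 (0.98), Klrk1 to Klrc1 (0.98), Klrb1b to Sema4c (0.93) and Klrg1 to Uckl1 (0.89). The points of 1 library share its depth and free RNA, so the values describe these libraries only.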

How the data were processed

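Live cells of mouse lung, 1 library labelled GFI1 KO and 1 labelled GFI1 WT, were captured with the 10x Genomics 3' kit v3.1, and the files came from Cell Ranger 9.0.1 on GRCm39 (mm39), per the submitters' processing notes. The values deposited by the authors were whole-number counts of UMIs per gene and antibody tag in called cells, not normalised. The methods describe no antibody tags for the lung libraries.

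Kept cells had at least 500 UMIs, at least 200 genes and at most 20% mitochondrial UMIs, and both libraries were clustered together with scanpy 1.11.5 (2000 variable genes, 50 components, 15 neighbours, Leiden resolution 0.8). Clusters with a Cd3e UMI in at least 30% of cells and those named NK-like or ILC-like were clustered again. Klr, Gfi1 and pathway genes were left out of both rounds. NK-like and ILC-like cells keep their name from the first round, since cluster 11 stayed unnamed in the second. Clusters with at least 60% of the markers of another lineage were left out of the T cells, a rule set after the data were seen. After the cell filter, ribosomal protein genes (Rpl, Rps, Mrpl and Mrps), mitochondrial genes and predicted Gm genes were left out. Clustering, class totals, depths of classes, thinning and shares over all genes used the remaining genes. Counts were summed per class, divided by the class total and given as CPM, in counts per 1000000. The UMIs of all genes as the total were an alternative. Intervals are exact at 95% (Poisson for levels, Clopper-Pearson for shares, conditional binomial for ratios) and cover counting error only. Ratios of at least 2 among genes with at least 30 UMIs over both libraries were counted. Shares were also taken after thinning each cell to 1500 UMIs. Doublets were not removed, and Scrublet was an alternative. With 1 library per label no test was run. The counting was checked on simulated data with an independent count per gene and library. That check did not cover UMIs gathered in few cells.

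The 8 genes are always named. Of 31 pathway genes, those with at least 30 UMIs and a 2-fold ratio are named, besides Hcst, Tyrobp and Fcer1g, and the gene or genes most like each receptor. Genes and lists were chosen with earlier results of these data known. Promoters come from RefSeq (GRCm38.p6), which held 6 of the 8, without Klrd1 and Klrg1.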

Additional observations from a re-analysis of the deposited data

Results flagged for a closer look

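Of the 8 receptors, 5 differed in opposite directions between cell classes, with counting intervals of the ratio of KO-labelled to WT-labelled level that did not hold 1. With 1 library per label the difference between classes was not tested. The share of all genes meeting the same rule was not computed, so the count is not read as particular to the receptors. Klrc2 had a ratio of 7.81 in CD8 T cells and 0.533 in Trdc-positive T cells. Klrd1 had 2.30 in CD4 T cells and 0.337 in Trdc-positive T cells. Klre1 had 2.78 in CD8 T cells and 0.162 in CD4 T cells, the latter from 1 UMI against 34. Klrb1b had 2.77 in Trdc-positive T cells and 0 in CD4 T cells, from 0 UMIs against 36. All 20 Klrb1b UMIs of Trdc-positive T cells labelled WT came from 3 cells. Klrb1c had 1.79 in CD8 T cells and 0.364 in Trdc-positive T cells. The latter was 0.974 without T cells with an Ncr1 UMI or 30 NK1.1 tag UMIs. Within cluster 3 of the Trdc-positive T cells, Klrd1 (1.29, 0.884 to 1.84) and Klrb1c (1.69, 0.832 to 3.25) were not lower. In cluster 6 Klrb1c was lower (0.0838, 0.00798 to 0.512, from 2 and 5 UMIs), and Klrd1 had 2 UMIs under each label. Klrc2 had 13 UMIs there under the KO label and none under the WT label.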

How the results depend on the processing

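No paired analysis was possible because each label had 1 library, and for the same reason no replicate could be left out. The ratios of single receptors were recomputed under 12 alternatives, each where it applied, and of 316 values 277 stayed within the counting interval, 35 moved further and 4 reversed. Of 111 counts of receptors 91 stayed within 1.5 times. The count of 4 receptors at least 2-fold higher in CD8 T cells stayed within 1.5 times under each alternative run. Their ratios ran from 6.30 to 7.07 for Klrc1, 6.85 to 9.13 for Klrc2, 3.86 to 6.19 for Klrk1 and 2.54 to 3.94 for Klre1. None of the 12 alternatives made the mix of CD8 clusters equal. At the mix of the library labelled WT, the ratios were 2.56 for Klrc1, 3.09 for Klrc2, 2.17 for Klrk1 and 1.40 for Klre1, the last below 2-fold. With UMI gates on single cells in place of clusters, 1 receptor was lower in NK-like cells (Klrb1b), 1 higher in ILC-like cells, 1 higher and 4 lower in Trdc-positive T cells and 1 lower in CD4 T cells, and Klre1 in CD4 T cells reversed (log2 ratio 1.19). With each library clustered on its own, 1 was lower in NK-like cells (Klrb1b), Klre1 reversed there (-0.0073), and no ILC-like cluster was found under the KO label, so that class gave no value. With no minimum of UMIs, 4 were lower in ILC-like cells. With cells thinned to 1500 UMIs, 1 was higher and 1 lower in Trdc-positive T cells, and 0 were lower in CD4 and in CD8 T cells. Without the Scrublet cells, 0 were lower in CD4 and in CD8 T cells. With CD4 and CD8 taken from antibody tags, 1 was lower in CD4 T cells, and Klrb1b there reversed (log2 ratio 0.13, with 0.5 UMIs added to each count). Chosen after seeing the data, keeping clusters with markers of other lineages gave 1 higher and 1 lower in Trdc-positive T cells, and requiring a Cd3e UMI gave 0 lower in CD4 T cells. Also chosen afterwards, leaving out T cells with an Ncr1 UMI or 30 NK1.1 tag UMIs gave 1 lower in Trdc-positive T cells and 0 lower in CD4 and in CD8 T cells. Klrb1b in CD4 T cells counted as reversed there (log2 ratio 0.11), though it had 0 UMIs under the KO label. That sign came from the 0.5 UMIs added to each count and is not read as a higher level. Apart from the smaller number of UMIs under thinning and smaller classes, the cause was not tested.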
